A study of Mus musculus with 2 samples.

Results

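Genes for chromatin and DNA methylation regulators were followed in murine effector CD8+ T cells of the pmel transgenic mouse, in which a transgenic T cell receptor recognises gp100, a protein of pigment cells and melanoma. A listed gene was taken where a probe of the array carried its symbol and no other and had a value on both arrays. Of 46 listed genes, 42 were measured, by 48 probes, among 14150 genes with such a probe. Suv39h1, Ehmt2, Hdac4 and Chd4 were not analysed here. The cells had been cultured in vitro and were taken after 2 and after 1 rounds of stimulation, and total RNA of both stages was hybridised together on a 2-colour array. The study had 2 of these arrays, array 2 being labelled a repeat, with the cells after 2 stimulations in channel 2 and the cells after 1 stimulation in channel 1. Genotype, age and treatment beyond this are not stated, and the labels leave unsaid if the repeat came from another culture or from the same RNA, so the spread between arrays may be technical.

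Every value was a ratio between the channels of 1 array on a log scale, taken as log2. The numerator is not stated. The order of the titles and channels makes 1 stimulation over 2 likely, on that order alone, and a negative value is then RNA more abundant after 2 stimulations and a positive value RNA more abundant after 1 stimulation. With the opposite order the sides swap, so results are given as sides of the ratio. Signal intensities were not used here, so no level of any gene can be given, the presence of the defining markers of CD8+ T cells could not be checked, and fewer cells of a type cannot be told apart from less RNA per cell. A bias of a probe for 1 dye cannot be told apart from a difference in RNA if the arrays shared their dye order, which is not stated.

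Chromatin regulators set how DNA is packed and which genes can be read. Methyl groups on DNA are copied after replication by a maintenance enzyme and set anew by other enzymes, and Polycomb complexes, heterochromatin proteins, acetylating and deacetylating enzymes and remodelling motors act on the histones and nucleosomes around it. Cells that divide must also pack newly made DNA, a task of histone chaperones that work at the replication fork, and in CD8+ T cells these systems are known to take part in the passage from naive to effector and memory states.

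The regulators lay more on the negative than on the positive side, but their list was chosen with earlier results of these data known. The 132 measured genes of a further chromatin list, given below, were even between the sides. Of 42 genes, 22 (52.4%) were negative on both arrays, against 33.6% of all named genes. On the positive side there were 4 (9.52%), against 29.6% of all named genes, and 16 had a different sign on each array or a value of 0. The median log2 ratio of the regulators was -0.23, with -0.23 on array 1 and -0.28 on array 2, against -0.02 over all named genes. At least 1.5-fold from a ratio of 1 on both arrays were 3 regulators on the negative side, where 3% of all named genes passed this size, and 0 on the positive side, where 1.24% did. They were Asf1b, Chaf1b and Chaf1a, all of them histone chaperone genes, and Asf1b alone was at least 2-fold on both, a size that 0.954% of all named genes passed on either side. On array 1 alone 30 regulators were negative and 11 positive, against 51.6% and 47.1% of all named genes. On array 2 alone 30 were negative and 12 positive, against 51% and 47.5% of all named genes. At least 1.5-fold on array 1 alone were 5 regulators on the negative side, where 6.14% of all named genes passed, and 2 on the positive side, where 3.48% passed. On array 2 alone there were 8 negative (9.48% of all named genes) and 0 positive (5.1% of all named genes), and 3 of the 8 were at least 2-fold (3.09% of all named genes). The means of 20 of the 42 regulators lay within 0.25 of 0.

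**Figure D1:**
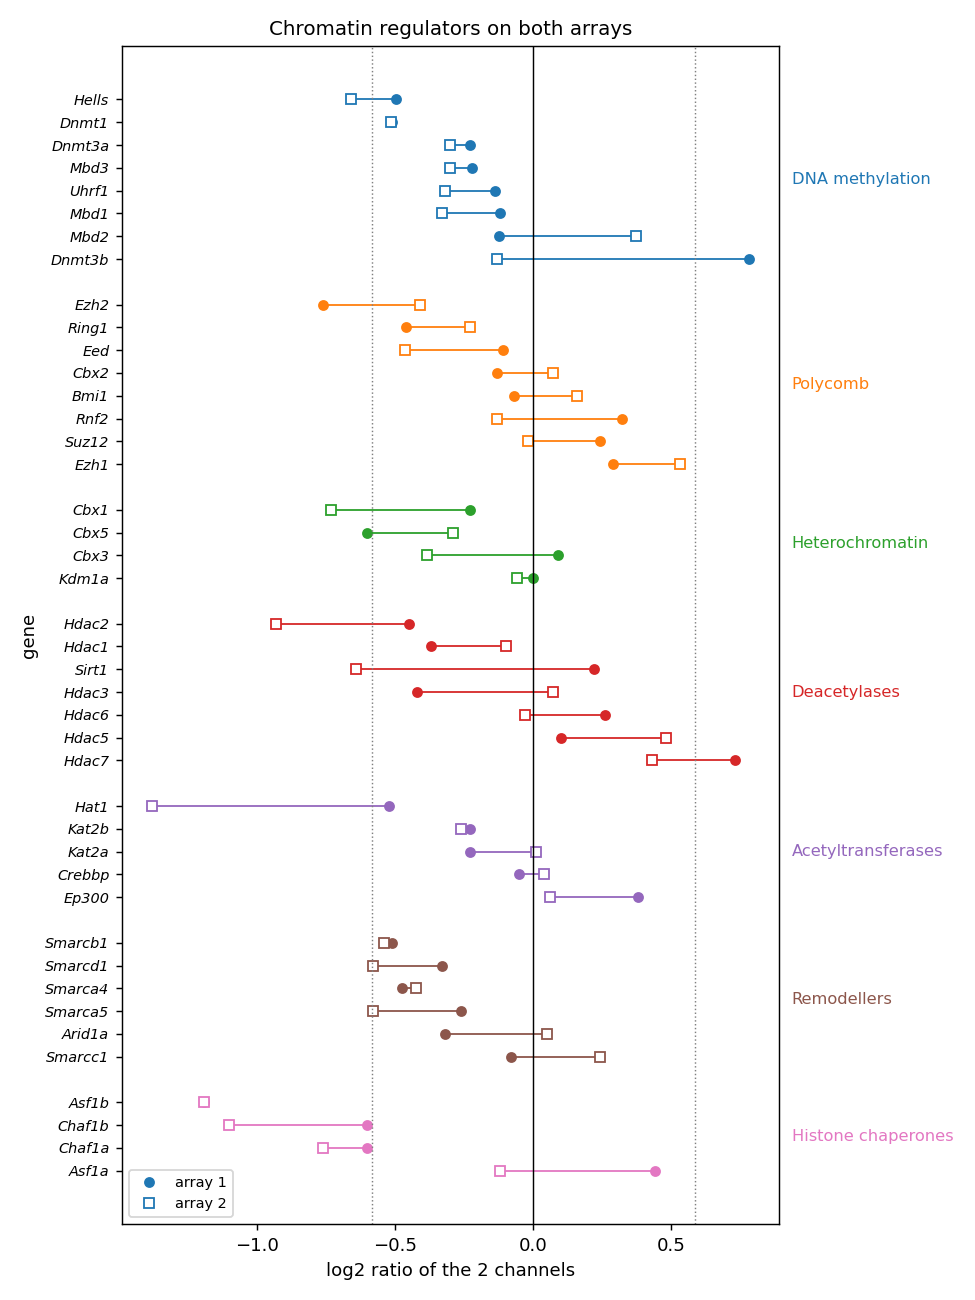
Log2 ratio of the 2 channels (horizontal axis) of each of the 42 measured regulators on array 1 (filled circle) and array 2 (open square), ordered by mean within 7 role groups, with dotted lines at a 1.5-fold difference. Asf1b, Chaf1a and Chaf1b lie left of the dotted line on both arrays, and the symbols overlap for Asf1b (-1.19 on both) and Dnmt1 (-0.51 and -0.52).

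No regulator passed limma's moderated test, which was run over all 21427 probes with both values with Benjamini-Hochberg adjustment. At an adjusted p of 0.05 the test called 0 of the 48 regulator probes and 0% of all probes, and the lowest adjusted p among the regulators was 0.162, for Asf1b. At an unadjusted p under 0.05 there were 17 of the 48 regulator probes (35.4%), against 14.9% of all probes. Of these 15 were negative, against 8% of all probes, and 2 were positive, against 6.87% of all probes. Without moderated variances the same test called 3 of the 48 regulator probes, those of Asf1b, Mbd2 and Dnmt1, and 1.12% of all probes. All 241 probes called in this way, the 3 included, had equal values on both arrays, so these calls mark a spread of 0. Regulators are thus given by their values and by whether the arrays shared a sign. The standard deviation of 1 probe on 1 array, from the difference between arrays, was 0.266 over regulator probes and 0.299 over all probes, and the median half-width of limma's 95% confidence interval of a mean was 0.396. Across the 42 genes, which share both arrays, the values of the arrays correlated with Pearson's r = 0.61, against 0.52 across all named genes.

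**Figure D2:**
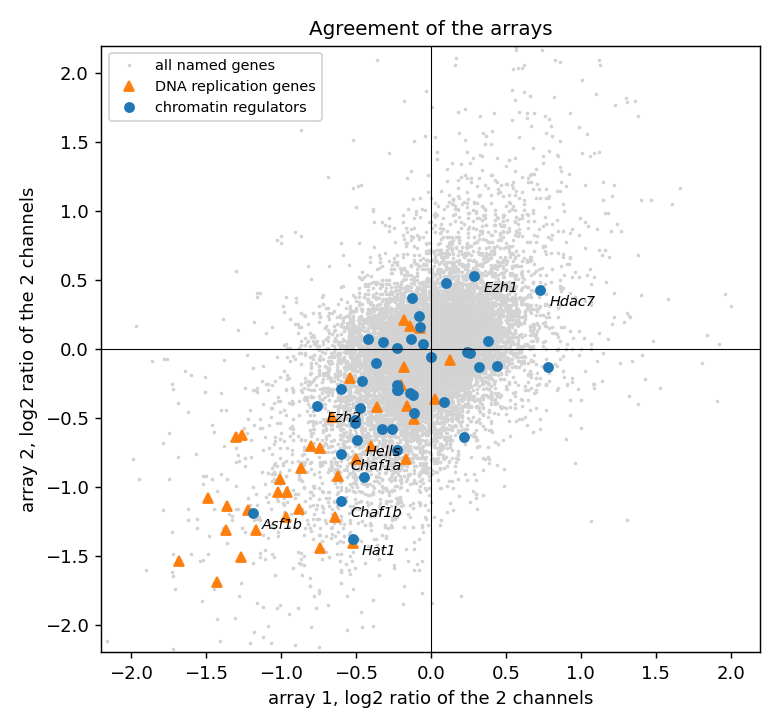
Log2 ratio on array 1 (horizontal) against array 2 (vertical) for all named genes (grey), 37 DNA replication genes (orange triangles) and 42 chromatin regulators (blue circles). The histone chaperone genes Asf1b, Chaf1a and Chaf1b and the acetyltransferase gene Hat1 lie in the lower left among the replication genes, and 42 genes with a value beyond 2.2 on either array are not drawn.

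The promoters of 6 regulators are shown. They are the 3 with the lowest means (Asf1b, Hat1 and Chaf1b), the close relatives Ezh2 and Ezh1, which lie on opposite sides, and Hells. Hells, a DNA methylation gene, was picked because its window holds E2F letters, so its match is no result about the regulators. Chaf1a, which was at least 1.5-fold on both arrays, is not shown. Each window is the 250 bases before the annotated start of the gene, 5′ to 3′ on the strand of the gene. The sequences are from RefSeq on build GRCm38.p6, matched by gene ID. Capitals mark CCAAT (or ATTGG, its reverse complement), the letters bound by the factor NF-Y, and TTTCCCGC, 1 of 4 spellings searched for E2F, the factor family of entry into DNA synthesis.
Asf1b (chr8:83955444-83955693, plus strand): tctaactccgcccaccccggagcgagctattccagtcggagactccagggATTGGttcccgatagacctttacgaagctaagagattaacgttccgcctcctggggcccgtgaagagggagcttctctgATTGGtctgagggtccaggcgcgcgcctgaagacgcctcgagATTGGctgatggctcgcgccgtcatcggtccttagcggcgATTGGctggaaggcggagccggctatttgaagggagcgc
Hat1 (chr2:71389010-71389259, plus strand): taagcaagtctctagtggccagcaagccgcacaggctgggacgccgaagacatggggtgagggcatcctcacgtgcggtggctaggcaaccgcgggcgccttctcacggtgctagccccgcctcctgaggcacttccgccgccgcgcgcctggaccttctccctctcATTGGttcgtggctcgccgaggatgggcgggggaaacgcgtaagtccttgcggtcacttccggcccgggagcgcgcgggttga
Chaf1b (chr16:93883651-93883900, plus strand): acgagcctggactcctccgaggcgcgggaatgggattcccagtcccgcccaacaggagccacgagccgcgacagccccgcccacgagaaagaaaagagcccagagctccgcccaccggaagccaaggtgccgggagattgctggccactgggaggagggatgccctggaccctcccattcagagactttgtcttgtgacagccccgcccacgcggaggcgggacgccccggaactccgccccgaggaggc
Hells (chr19:38930740-38930989, plus strand): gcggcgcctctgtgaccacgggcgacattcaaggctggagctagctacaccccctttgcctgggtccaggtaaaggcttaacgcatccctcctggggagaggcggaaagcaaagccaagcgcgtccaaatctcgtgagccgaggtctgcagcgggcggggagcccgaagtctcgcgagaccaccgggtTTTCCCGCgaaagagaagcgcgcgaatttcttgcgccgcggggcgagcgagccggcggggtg
Ezh2 (chr6:47595031-47595280, minus strand): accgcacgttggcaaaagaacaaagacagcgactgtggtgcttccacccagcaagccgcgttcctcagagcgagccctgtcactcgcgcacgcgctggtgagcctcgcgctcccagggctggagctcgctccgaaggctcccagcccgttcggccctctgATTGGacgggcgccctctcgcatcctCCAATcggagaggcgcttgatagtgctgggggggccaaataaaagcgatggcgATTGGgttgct
Ezh1 (chr11:101226464-101226713, minus strand): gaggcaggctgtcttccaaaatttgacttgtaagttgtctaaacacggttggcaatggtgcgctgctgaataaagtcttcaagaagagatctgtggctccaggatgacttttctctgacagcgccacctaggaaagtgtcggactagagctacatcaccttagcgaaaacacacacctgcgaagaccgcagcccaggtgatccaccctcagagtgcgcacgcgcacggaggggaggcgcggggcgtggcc
The Asf1b window holds CCAAT 4 times, as does 1 window of Dnmt1, a number reached by 0.84% of all promoters. The Ezh2 window holds it 3 times, the Hat1 window 1 time and the Ezh1 and Chaf1b windows 0 times. A window with 3 or more was found for 4 of the 37 regulators with a promoter entry, Asf1b, Dnmt1, Ezh2 and Mbd3. Such a number was reached by 2.79% of all promoters. That share counts windows and not genes, and Dnmt1 has several windows, so the 2 are not alike.

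Both motifs were counted in all windows of this kind on both strands. The E2F spellings were TTTCCCGC, TTTGGCGC, TTTCGCGC and TTTGCCGC, and no spelling overlaps CCAAT in the windows shown. Of the 42 regulators, 37 had 49 promoter entries. An E2F spelling was found in 8 of these entries (16.3%), against 2.57% of the promoters of all genes measured on both arrays and 1.86% of all 32851 promoters. The share was higher in the promoters of the DNA replication genes, 8 of 35 (22.9%), so it is not particular to the regulators. The 8 regulators were Dnmt1, Hells, Uhrf1 and Smarcd1, which were negative on both arrays, and Arid1a, Cbx3, Kat2a and Suz12, which had mixed signs. Thus 4 of 27 entries of genes on the negative side held it, against 4 of 15 entries of genes with mixed signs and 0 of 7 on the positive side. It was found in 0 of the 3 entries of Asf1b, Chaf1a and Chaf1b. CCAAT was found in 16 of the 49 entries of the regulators (32.7%), against 34.8% of the promoters of all genes measured on both arrays and 33.8% of all promoters. In the promoters of the DNA replication genes it was found in 21 of 35 (60%). By side, the regulator entries with CCAAT were 11 of 27 of negative genes, 4 of 15 of genes with mixed signs and 1 of 7 of positive genes. These matches describe letters in a window and are not binding sites.

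Histone chaperones hand histones to newly made DNA, and their genes had the lowest median of the 7 role groups, -0.77 over 4 genes. Asf1b, which carries new histones H3 and H4 in dividing cells, read -1.19 on both arrays. This is a 2.28-fold difference, with an adjusted p of 0.162 in limma's test. Its close relative Asf1a, which encodes the other ASF1 protein, read 0.44 and -0.12 on arrays 1 and 2, so the arrays disagreed in sign and no side is given for it. Chaf1a and Chaf1b encode the 2 large subunits of CAF-1, the complex that places histones at the replication fork. Chaf1a read -0.60 and -0.76 on arrays 1 and 2, a mean of -0.68 ± 0.11 (SD, n = 2; limma adjusted p of 0.193). Chaf1b read -0.60 and -1.10, a mean of -0.85 ± 0.35 (SD, n = 2; limma adjusted p of 0.196). Both arrays put the pair on the negative side, and array 2 was farther from 0.

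Among the DNA methylation genes 6 of 8 (75%) were negative on both arrays, against 33.6% of all named genes. None was positive on both, against 29.6% of all named genes, and the median was -0.25. A further list of 8 measured DNA methylation genes, outside these, did not share this side. On both arrays 1 of them was negative and 4 were positive, with a median of 0.07. Dnmt1, the maintenance methyltransferase, had 2 probes that repeated closely, 1 at -0.69 on both arrays and the other at -0.33 and -0.34. Hells, a helicase of the SNF2 family that DNA methylation requires, also had 2 probes, with -0.82 and -0.87 on arrays 1 and 2 for 1 and -0.17 and -0.45 for the other. For both genes the probes had the same sign and different sizes, and the gene means were -0.51 ± 0.004 for Dnmt1 and -0.58 ± 0.12 for Hells (SD, n = 2 each). Uhrf1, which brings the maintenance enzyme to half-methylated DNA, was nearer 0 at -0.14 and -0.32. The enzymes that set new methylation differed from each other. Dnmt3a read -0.23 and -0.30, while Dnmt3b read 0.78 and -0.13, a change of sign between arrays. Mbd1, a reader of methylated DNA, read -0.12 and -0.33. Mbd3, a NuRD subunit of the same protein family, read -0.22 and -0.30. The probes of Mbd2, another reader of methylated DNA, disagreed, with -0.23 on both arrays for 1 and -0.02 and 0.97 for the other, so no side is given for it.

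Polycomb genes did not share a side. On both arrays 3 of the 8 (37.5%) had negative values, Eed only by the mean of its 2 probes, near the 33.6% of all named genes. Positive on both was 1 (12.5%), against 29.6% of all named genes. The median of the 8 genes was 0.0075, while the medians of the single arrays were -0.09 and -0.08, so it has no settled sign. Ezh2 and Ezh1 encode alternative catalytic subunits of PRC2, which writes a repressive methyl mark on histone H3, and Ezh2 is known as the form of dividing cells. Ezh2 read -0.76 and -0.41 on arrays 1 and 2, a mean of -0.59 ± 0.25 (SD, n = 2). Ezh1 read 0.29 and 0.53, a mean of 0.41 ± 0.17 (SD, n = 2). The 2 genes lay on opposite sides of 0 on both arrays, though neither passed limma's test, with adjusted p of 0.251 for Ezh2 and 0.325 for Ezh1, and with 2 arrays their difference was not tested. Of the other PRC2 members, Suz12, a core subunit, read 0.24 and -0.02. The probes of Eed, the subunit that reads the mark, disagreed, with -0.40 and -0.80 for 1 and 0.18 and -0.13 for the other. PRC1, the Polycomb complex that ubiquitinates histone H2A, was represented by its ligase genes Ring1 (-0.46 and -0.23) and Rnf2 (0.32 and -0.13), by Bmi1 (-0.07 and 0.16) and by Cbx2 (-0.13 and 0.07). Only Ring1 among these 4 kept its sign on both arrays.

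The heterochromatin proteins HP1 bind methylated histone H3 and are encoded by Cbx1, Cbx3 and Cbx5. Cbx1 read -0.23 and -0.73 on arrays 1 and 2 and Cbx5 -0.60 and -0.29, with means of -0.48 ± 0.35 and -0.45 ± 0.22 (SD, n = 2 each). Both were on the negative side, but the array with the larger value was not the same. Cbx3 had probes of opposite mean sign, with -0.06 and -0.63 for 1 and 0.24 and -0.14 for the other. Kdm1a, a demethylase that acts on histone H3, was at 0.00 and -0.06.

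Deacetylase genes lay on both sides, with 2 of 7 (28.6%) negative and 2 (28.6%) positive on both arrays. These shares were near the 33.6% and 29.6% of all named genes. Hdac1 and Hdac2 encode closely related nuclear enzymes of corepressor complexes, and both were on the negative side. Hdac2 read -0.45 and -0.93 on arrays 1 and 2, a mean of -0.69 ± 0.34 (SD, n = 2), a 1.61-fold difference with a limma adjusted p of 0.238. Hdac1 read -0.37 and -0.10. Hdac7 and Hdac5, signal-responsive enzymes of another class, were on the positive side. Hdac7, which is known from developing T cells and cytotoxic T cells, read 0.73 and 0.43, a mean of 0.58 ± 0.21 (SD, n = 2), the highest mean of the 42 genes, with a limma adjusted p of 0.247. Hdac5 read 0.10 and 0.48. Hdac3, Hdac6 and Sirt1 changed sign between arrays, and Sirt1, a deacetylase that needs NAD, did so widely with 0.22 and -0.64. The T cell and B cell marker genes lay on the same side as the 4 positive regulators. Of 11 T cell markers 8 were positive and 1 was negative on both arrays. Their median was 0.28 (array 1 alone 0.13, array 2 alone 0.42). Of 7 B cell markers 5 were positive and 0 negative, and their median was 0.33 (array 1 alone 0.21, array 2 alone 0.65). On the side of the 22 negative regulators were 2 of 3 NK cell markers. Klrb1c read -0.77 and -1.88 and Ncr1 -0.27 and -0.25, while Klra8 lay on the positive side with 0.86 and 0.06. Of 6 markers of macrophages or dendritic cells, 3 kept a negative sign and 1 a positive sign. Of 3 CD4 T cell markers 1 kept a positive sign and 0 a negative one, and of 3 erythroid markers 1 kept a negative sign and 0 a positive one. Among all named genes, 33.6% kept a negative and 29.6% a positive sign, and the marker lists are short. The part of these markers in the values of the regulators was not tested.

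Among acetyltransferases, Hat1 stood apart from the rest. It acetylates new histone H4 before it is placed on DNA, and it read -0.52 and -1.38 on arrays 1 and 2, a mean of -0.95 ± 0.61 (SD, n = 2) with a limma adjusted p of 0.239. Its sign was the same on both arrays, but its size rests largely on array 2. The genes of the coactivator enzymes had means within 0.25 of 0, with Kat2b negative and Ep300 positive on both arrays. Kat2b read -0.23 and -0.26 and its relative Kat2a -0.23 and 0.01. Ep300, the gene of p300, read 0.38 and 0.06 and its relative Crebbp -0.05 and 0.04.

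Of 6 nucleosome remodelling genes, 4 (66.7%) were negative on both arrays, against 33.6% of all named genes. None was positive on both, against 29.6% of all named genes, and the median was -0.44. Smarca4, the gene of the motor BRG1, had 2 probes that repeated each other, with -0.47 and -0.42 for 1 and -0.48 and -0.43 for the other. Smarcb1, a core subunit of the same BAF complex, read -0.51 and -0.54, and Smarcd1, an accessory subunit, -0.33 and -0.58. Smarca5, the motor of the ISWI complexes, read -0.26 and -0.58. These 4 genes agreed in sign and lay between -0.42 and -0.53 in the mean, none at 1.5-fold on both arrays. Smarcc1 (-0.08 and 0.24) and Arid1a (-0.32 and 0.05), further BAF subunits, changed sign between arrays. A further list of 29 measured remodelling genes, outside these, leaned less to the negative side. In it 14 genes (48.3%) kept a negative sign and 10 (34.5%) a positive one. Its median was -0.05.

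Subunits of 4 known complexes, grouped after the values had been seen, were set side by side. All 3 CAF-1 genes were negative on both arrays, the shared histone-binding subunit gene Rbbp4 with -0.68 and -0.37. Of 6 PRC2 genes 4 were negative, Eed only by the mean of probes that disagreed, and 1, Ezh1, was positive. Rbbp7, a relative of Rbbp4, was the lowest of them with -0.82 and -1.27. NuRD joins deacetylases with a CHD motor. It had 11 measured genes, 8 of them negative on both arrays. The only one positive on both was Chd3, a motor, with 0.62 and 1.08. Of 13 BAF genes 8 were negative and 2 positive, and the values ran from -0.58 for Actl6a to 0.32 for Smarcd2 in the mean. The median was -0.68 for CAF-1, -0.41 for PRC2, -0.26 for NuRD and -0.145 for BAF. For comparison, 33.6% of all named genes kept a negative sign and 29.6% a positive one. The counts overlap, since Rbbp4 and Rbbp7 were counted in more than 1 complex. Signs were counted at any size, as for Mta1 in NuRD with -0.08 and -0.01 and Smarca2 in BAF with -0.075 and -0.06.

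**Figure D3:**
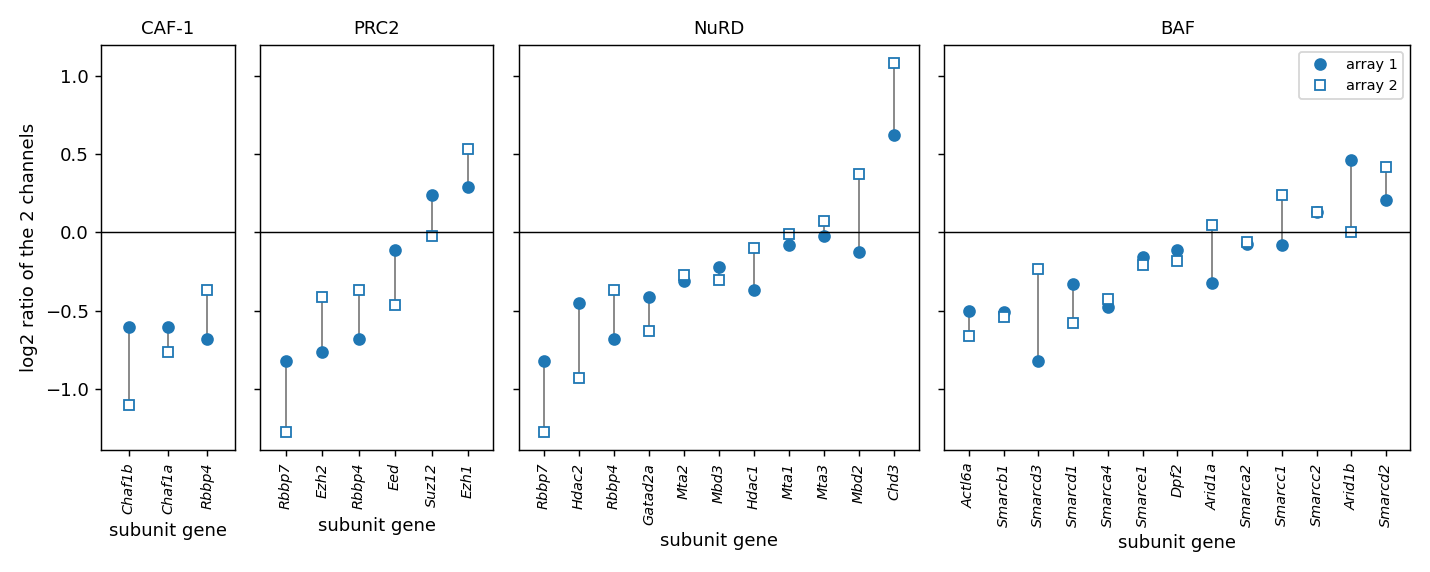
Log2 ratio of the 2 channels (vertical axis) of the measured subunit genes of CAF-1 (3 genes), PRC2 (6), NuRD (11) and BAF (13) on array 1 (filled circle) and array 2 (open square), ordered by mean within each complex. All CAF-1 genes lie below 0 on both arrays, while Ezh1 in PRC2 and Chd3 in NuRD lie above 0 on both.

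A further list of 174 chromatin genes, which left out the 46, had 132 measured genes and was even between the sides. On both arrays 44 (33.3%) were negative and 48 (36.4%) positive, against 33.6% and 29.6% of all named genes, and the median was 0.04. At least 1.5-fold on both arrays was 1 gene on the negative side, Rbbp7 (0.758%), where 3% of all named genes passed. On the positive side there were 5, where 1.24% of all named genes passed. The positive ones were Cbx7, a Polycomb protein, with 0.69 and 1.71, Zbtb4, a reader of methylated DNA, with 0.68 and 1.16, Kdm5b, a histone demethylase, with 0.94 and 0.87, Chd3, and Daxx, a chaperone of the replacement histone H3.3, with 0.80 and 0.70. The 15 other histone chaperone genes had a median of -0.36 (array 1 alone -0.06, array 2 alone -0.54). The 16 other acetylation genes had a median of 0.17 (array 1 alone 0.05, array 2 alone 0.28). The size of both medians thus depended on the array.

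The DNA replication list lay on the same side as the negative regulators. On both arrays 32 of its 37 measured genes (86.5%) had negative values, against 33.6% of all named genes. None had positive values, against 29.6% of all named genes. The median of the list was -0.87. At least 1.5-fold negative on both were 21 of its genes (56.8%), against 3% of all named genes. The lowest were Rfc3 and Rfc4, subunits of the clamp loader, with -1.68 and -1.54 and with -1.27 and -1.51, and Gins1, a subunit of the replicative helicase, with -1.43 and -1.69. The part of replication in the values of Asf1b, Chaf1a, Chaf1b, Hat1, Dnmt1 and the other negative regulators was not tested.

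**Figure D4:**
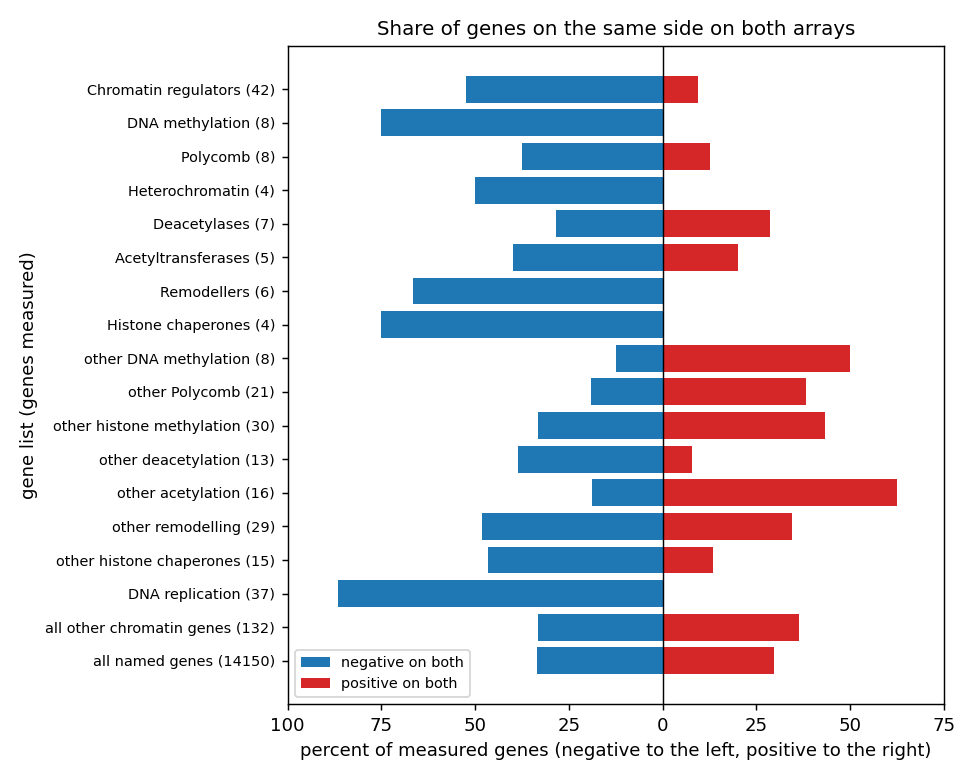
Percent of the genes of a list that were negative on both arrays (blue bars, to the left) and positive on both arrays (red bars, to the right) in the chromatin regulators and their 7 role groups, 7 further chromatin lists, the DNA replication genes and all named genes, with the number of genes measured in brackets. The regulators reach 52.4% on the left and 9.52% on the right, the further chromatin genes 33.3% and 36.4%, and the replication genes 86.5% and 0%.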

How the data were processed

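Expression was measured on 2 two-channel microarrays. The deposited table holds 1 signed value per probe and array, used here as a log2 ratio of the channels. The authors' scanner, background correction, normalization and filters are not given in the sources used here, and neither are the numerator and the log base. The deposited medians were 0.01 and 0.02, and a shift common to all genes could not show. Of 21919 probes, 21427 had both values. Names came from the annotation of the platform, where 15998 had 1 gene symbol, 288 several and 5633 none. All 42 measured regulators kept their symbol in RefSeq by gene ID. Values of several probes were averaged per gene for counts and medians.

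limma 3.58.1 in R 4.3.3 fitted an intercept over both arrays per probe, tested against 0 (two-sided, moderated variances, Benjamini-Hochberg over all probes), with 1 residual degree of freedom and 3.43 from the prior. The steps were tested on simulated data. The number of arrays limits the precision. Regulators and lists were chosen with earlier results of these data known. Named were regulators with the same sign on both arrays and a mean of at least 0.4, close relatives, and up to 3 genes per side of other lists at least 1.5-fold on both arrays. Others are given to show their role group. Alternatives were other centring and scaling, other handling of probes and variances, and leaving out each array.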

Additional observations from a re-analysis of the deposited data

How the results depend on the processing

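Under median centring, quantile normalization, the single farthest probe per gene, and leaving out the 3 genes whose probes had opposite signs (tried after seeing the data), the counts on each side of 0 stayed within 1.5 times those reported. The count at least 1.5-fold on the negative side was 5 with the farthest probe (3.23% of all named genes) and 10 when values were read as natural logs (6.02% of all named genes), a reading chosen after seeing the data, which gave 1 on the positive side (3.04%). Without moderation limma called 3 regulator probes among 241 of all 21427 probes, and every one of the 241 had equal values on both arrays. Each array alone (without replicate 1 or 2) gave 30 negative and 11 to 12 positive regulators, 5 to 8 at least 1.5-fold negative, 0 to 2 positive, and 1 to 3 at least 2-fold, counts that no longer ask for agreement of both arrays. The median was -0.275 to -0.225 on single arrays. The Polycomb median was -0.0075 after median centring and -0.09 to -0.075 on single arrays. The deacetylase median of -0.175 was -0.03 on array 2 and 0.10 on array 1. No test could be made with 1 array, which leaves no residual degree of freedom. No paired analysis was possible because the arrays form 1 group.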
